A study of Mus musculus with 8 samples.

Results

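The miR-101 and miR-26 families are represented here by 6 mature miRNAs, taken by name from the 1915 listed: mmu-miR-101a-3p, mmu-miR-101a-5p, mmu-miR-101b-3p, mmu-miR-26a-5p, mmu-miR-26b-5p and mmu-miR-26b-3p (the mouse prefix mmu is mostly left off below). The set was proposed with the counts of all 8 libraries in view. The members' own levels, fold changes and calls in every comparison are therefore descriptions that support nothing. All 6 passed the abundance filter, which left 475 miRNAs. The 8 small RNA libraries come from mouse embryonic stem cells of 129/Ola background in 4 groups of 2, grown in serum with LIF. The induced AGO1 line (A and B) is an Ago2 knockout line carrying an inducible AGO1 transgene, treated with doxycycline at 1 µg/mL. The uninduced AGO1 line (A and B) is the same line without doxycycline. The Ago2 knockout group pairs lines 1 and 2, and the wild type group is E14, A and B. The AGO1 line was made from knockout line 1, was kept in puromycin, and has a single line name for its 4 libraries, so its groups do not show how far separate clones differ. No label states that libraries A and B came from different cultures; the p-values below measure the spread between these libraries, which may be technical.

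miRNAs guide Argonaute proteins to messenger RNAs mainly through the seed, the bases near the 5′ end, and lower the stability and translation of the target. EZH2 is the catalytic subunit of Polycomb repressive complex PRC2, which trimethylates histone H3 at lysine 27. In human tumour cells miR-101 and miR-26a are known repressors of EZH2, and miR-26a also targets Ezh2 during mouse muscle differentiation. AGO2 is the mammalian Argonaute known for slicing its targets, and AGO1 is a family member that also loads miRNAs.

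The mature sequences are shown because the paralogs differ in ways that bear on how their counts are read. They come from RefSeq (GRCm38.p6), which matched all 6 members, and run 5′ to 3′ with the seed, bases 2 to 8, in capitals.
miR-101a-3p: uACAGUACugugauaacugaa
miR-101b-3p: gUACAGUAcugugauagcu
miR-101a-5p: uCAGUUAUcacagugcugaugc
miR-26a-5p: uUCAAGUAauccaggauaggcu
miR-26b-5p: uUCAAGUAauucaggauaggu
miR-26b-3p: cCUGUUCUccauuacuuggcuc
miR-26a-2-3p: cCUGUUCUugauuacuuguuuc
In these sequences miR-101b-3p starts 1 base before miR-101a-3p, so the capitals of the pair are out of register and the seeds differ. The pair shares a run of 15 bases, and with miR-101b-3p read from its base 2 the overlap holds 1 difference, A16G (miR-101a-3p has the first base, counted from its 5′ end). miR-26a-5p and miR-26b-5p have the same seed and differ at C11U and C21U, counted from the 5′ end, and miR-26b-5p is 1 base shorter. miR-26b-3p shares its seed with miR-26a-2-3p, the opposite arm of a miR-26a hairpin. Reads of such near-identical paralogs can be shared, and no source used here gives how the authors assigned them.

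The members come from 5 hairpins, placed here on GRCm38.p6 with gene models of GENCODE vM21. miR-101a (chr4:101346945-101347027, minus strand) lies in an exon of the long non-coding RNA gene E130102H24Rik. miR-101b (chr19:29135279-29135375) lies in an intron of Rcl1. miR-26b (chr1:74394310-74394394) lies in an intron of Ctdsp1, and miR-26a-1 (chr9:119031796-119031885) in an intron of Ctdspl. miR-26a-2 (chr10:126995530-126995613) overlaps an exon in 2 of the 3 Ctdsp2 transcripts that span it. Both miR-26a hairpins give the same miR-26a-5p, so its count cannot be split between them. Ctdsp1, Ctdsp2 and Ctdspl encode related small phosphatases that act on RNA polymerase II, so all 3 miR-26 hairpins sit in genes of 1 family, on the host's strand.

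The longest annotated 3′ UTR of mouse Ezh2 (405 bases) holds matches to the seeds of both families, shown here as the letters through which these miRNAs are expected to pair. Each line is the messenger strand, 5′ to 3′, with the reverse complement of a seed in capitals; only this strand was searched.
miR-101a-3p at chr6:47530475-47530498, minus strand: gcttcaggaaccttgaGTACTGTg
miR-101a-3p at chr6:47530420-47530443, minus strand: attctgaatttgcaaaGTACTGTa
miR-101b-3p at chr6:47530419-47530442, minus strand: ttctgaatttgcaaagTACTGTAa
miR-26a-5p at chr6:47530286-47530309, minus strand: aaatttgaataaagaaTACTTGAa
The miR-101b-3p match, TACTGTA, overlaps the second miR-101a-3p match, GTACTGT, by all but 1 base. Among the 15279 genes with a 3′ UTR at least as long, the first 405 bases hold GTACTGT in 2.72%, TACTGTA in 3.33% and TACTTGA in 2.85%. A match of letters is a description; Ezh2 messenger RNA, EZH2 protein and their repression were not analysed here.

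Total counts ranged from 163467 in knockout line 2 to 1326638 in the induced AGO1 line A. The cell type labels were read against 9 pluripotency miRNAs (miR-290-295 and miR-302 clusters), all detected, which summed to 238141 to 253606 CPM (counts scaled to a common library size, with edgeR's TMM factors) in the induced line, 196605 to 202721 in the uninduced line, 187930 to 217697 in the knockout and 200395 to 246983 in wild type. Of these 9, 1 was called higher and 3 lower in the knockout than in wild type, and 3 higher and 2 lower in the induced than in the uninduced line. Of 5 blood markers 3 had counts and all 3 were called higher in the knockout than in wild type; the list summed to 3710 to 3871 CPM in the induced line, 6210 to 6716 in the uninduced line, 5715 to 6389 in the knockout and 1834 to 1881 in wild type, with miR-223-3p and miR-451a at 0. Of 4 fibroblast markers 3 had counts and 1 was called lower in the knockout than in wild type; the sums were 1848 to 2020, 318 to 370, 407 to 447 and 3191 to 3746 CPM in the same order, with miR-214-3p at 0. Of 4 neural markers 3 had counts and 1 was called lower in the knockout than in wild type; the sums were 940 to 1093, 747 to 1108, 850 to 896 and 1505 to 1870 CPM, with miR-219a-5p at 0. Of 3 muscle markers 1 had counts, at most 6.61 CPM, with miR-1a-3p and miR-206-3p at 0, and the liver marker miR-122-5p was at 0. The part of these shifts in the values below was not tested.

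mmu-miR-26a-5p was the abundant member and its level was close to even over the 4 groups. It had 25715 and 24657 CPM in the induced line, 25115 and 24000 in the uninduced line, 24241 and 20766 in knockout lines 1 and 2, and 23513 and 22205 in wild type A and B. It ranked between 8 and 14 among all miRNAs in every library. Both AGO1 groups lay above both wild type libraries, the induced line by a log2 fold change of 0.14 ± 0.14 (SE). The knockout and wild type values overlapped, at -0.02 ± 0.14. Every level is a share of its library, which hides any change common to all miRNAs. As these are bulk libraries, fewer cells with a miRNA and less of it per cell cannot be told apart.

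mmu-miR-26b-5p, with the same seed, was lower in every library without AGO2. It had 239 and 206 CPM in the induced line, 238 and 188 in the uninduced line, 205 and 216 in the knockout, and 381 and 333 in wild type. No library of the 3 Ago2-deficient groups reached the lower wild type value, while those groups overlapped with each other. The log2 fold change was -0.76 ± 0.24 for the knockout against wild type and -0.68 ± 0.23 for the induced line against wild type. It was 0.05 ± 0.24 for the induced against the uninduced line.

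mmu-miR-26b-3p, the opposite arm of the same hairpin, stood the other way round. It had 113 and 111 CPM in the induced line, 192 and 172 in the uninduced line, 167 and 116 in the knockout, and 92.5 and 77.4 in wild type. Every Ago2-deficient library exceeded both wild type libraries, and the uninduced line was the highest group. The log2 fold change was 0.76 ± 0.30 for the knockout against wild type, 0.40 ± 0.28 for the induced line against wild type and -0.71 ± 0.28 for the induced against the uninduced line.

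The miR-101a hairpin gave the main miR-101 product. mmu-miR-101a-3p had 403 and 378 CPM in the induced line, 678 and 522 in the uninduced line, 876 and 719 in the knockout, and 795 and 662 in wild type. The knockout and wild type overlapped, the uninduced line lay below the knockout, and both induced libraries lay below all others. The log2 fold change was 0.13 ± 0.22 for the knockout against wild type, -0.41 ± 0.22 for the uninduced line against the knockout, -0.63 ± 0.22 for the induced against the uninduced line, and -0.90 ± 0.22 for the induced line against wild type.

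mmu-miR-101a-5p, its opposite arm, split the groups elsewhere. It had 28.2 and 38.9 CPM in the induced line, 46.6 and 39.7 in the uninduced line, 115 and 95.6 in the knockout, and 114 and 119 in wild type. All 4 libraries of the AGO1 line lay below all 4 others, and the knockout and wild type overlapped. The log2 fold change was -1.28 ± 0.34 for the uninduced line against the knockout and -1.80 ± 0.30 for the induced line against wild type. The counts behind the 2 shallowest libraries were 12 in the uninduced line B and 19 in knockout line 2.

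mmu-miR-101b-3p showed the widest gap of the 6 members. It had 11.1 and 13.0 CPM in the induced line, 12.0 and 19.8 in the uninduced line, 22.5 and 30.2 in the knockout, and 139 and 119 in wild type. These values rest on 13 and 13, 9 and 6, and 9 and 6 counts in the Ago2-deficient groups in that order, against 117 and 132 counts in wild type. The exact 95% binomial interval was 10.3 to 42.6 CPM in knockout line 1 and 11.1 to 65.7 CPM in knockout line 2, against 114.8 to 166 and 99.3 to 141 CPM in wild type A and B. These intervals hold the error of counting alone: without molecular identifiers, reads are not separate molecules. The log2 fold change was -2.33 ± 0.39 for the knockout against wild type, a 5.04-fold lower level, and -3.40 ± 0.35 for the induced line against wild type, a 10.6-fold lower level. Between the induced and the uninduced line it was -0.28 ± 0.46, with overlapping values.

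**Figure D1:**
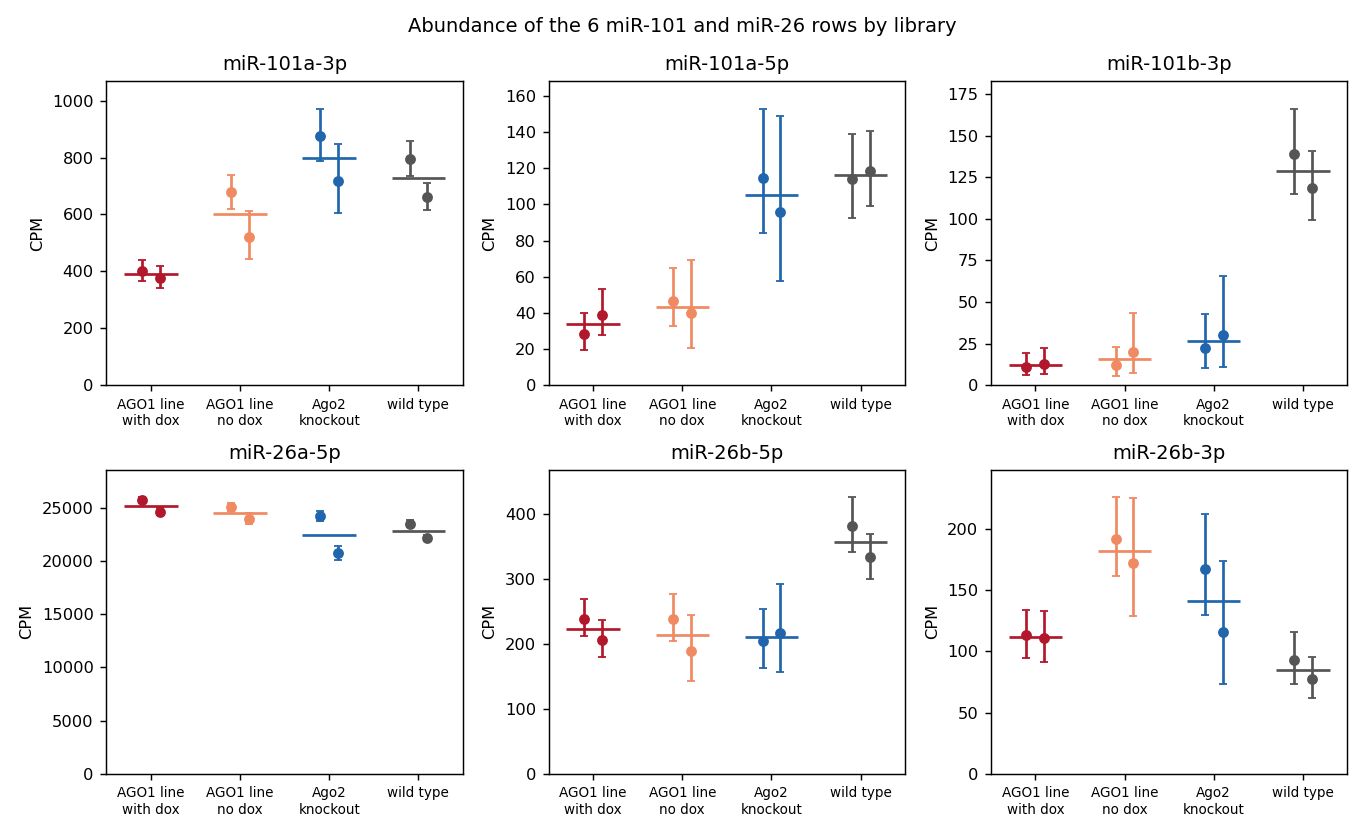
CPM of each member on a linear axis from 0, in 8 libraries; points are libraries with exact 95% binomial intervals of their counts, and horizontal lines are means of 2. miR-101b-3p is at 139 and 119 CPM in wild type and at most 30.2 CPM elsewhere, while miR-26a-5p stays between 20766 and 25715 CPM.

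By the edgeR quasi-likelihood fit over all 475 miRNAs, with Benjamini-Hochberg adjustment and an adjusted p under 0.05, the members' calls can be set beside those of all miRNAs, though nothing is read from them because the members were chosen on these values. For the knockout against wild type 3 of the 6 members were called, miR-26b-3p higher and miR-101b-3p and miR-26b-5p lower, where 57.7% of all miRNAs were called, 25.5% higher and 32.2% lower. The members' median log2 fold change was -0.08 and that of all miRNAs -0.12. The same 3 members did not overlap between groups, 1 higher and 2 lower, as 77.3% of all miRNAs did not, 34.3% higher and 42.9% lower. With 1 library left out, the log2 fold change of miR-101b-3p lay between -2.47 (without knockout 2) and -2.04 (without wild type A). The call of miR-26b-5p was lost without wild type A, knockout 1, uninduced A, induced A or induced B (log2 fold changes -0.48, -0.72, -0.68, -0.62 and -0.60). That of miR-26b-3p was lost without wild type B, knockout 1, uninduced A, uninduced B, induced A or induced B (0.63, 0.45, 0.85, 0.81, 0.89 and 0.91). Without TMM factors the median of all miRNAs became 0.16, their calls 155 higher and 111 lower in place of 121 and 153, and miR-26b-5p, at -0.46, was not called.

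For the induced line against wild type 4 of 6 were called, all lower (both miR-101a arms, miR-101b-3p and miR-26b-5p), where 38.9% of all miRNAs were called, 19.2% higher and 19.8% lower. All 6 did not overlap, 2 higher and 4 lower, as 76.0% of all miRNAs did not, 40.0% higher and 36.0% lower. The median was -0.79 for the members and 0.01 for all miRNAs. The call of miR-101a-3p was lost without wild type A, induced A or induced B (-0.59, -0.80 and -0.72), and that of miR-26b-5p without wild type A or B, uninduced A or B, or induced A or B (-0.41, -0.78, -0.62, -0.63, -0.64 and -0.45). This comparison and the one above share the wild type libraries.

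Between the induced and the uninduced line 0 of 6 members were called by edgeR, where 28.8% of all miRNAs were called, 21.1% higher and 7.79% lower; 2 had an unadjusted p under 0.05 and DESeq2 called 1, miR-101a-3p. miR-101a-3p and miR-26b-3p were each called by edgeR without knockout 1 (-0.60 and -0.68) or knockout 2 (-0.62 and -0.70), which are in neither group compared. Both were also called without TMM factors (-0.83 and -0.91), with DESeq2 size factors (-0.70 and -0.78) and in a fit of the 2 groups alone (-0.66 and -0.74), and over all 16 alternatives in 8 and 6 of them. 3 members did not overlap, all lower (both miR-101a arms and miR-26b-3p), where 72.4% of all miRNAs did not, 38.3% higher and 34.1% lower. The median was -0.34 for the members and 0.03 for all miRNAs, which became -0.17 without TMM factors, with 83 higher and 64 lower calls in place of 100 and 37. Between the uninduced line and the knockout edgeR called 0 of 6 members and 0% of all miRNAs; 1 member, miR-101a-5p, had an unadjusted p under 0.05, as did 72 of 475 miRNAs, and DESeq2 called 0 members and 15 miRNAs. There 4 members did not overlap, miR-26b-3p higher and the 3 miR-101 members lower, where 44.6% of all miRNAs did not, 22.1% higher and 22.5% lower. Without knockout 2, miR-101a-5p was called (-1.40), and 33 miRNAs in all; without knockout 1, 61 were. These last comparisons share the uninduced libraries.

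**Figure D2:**
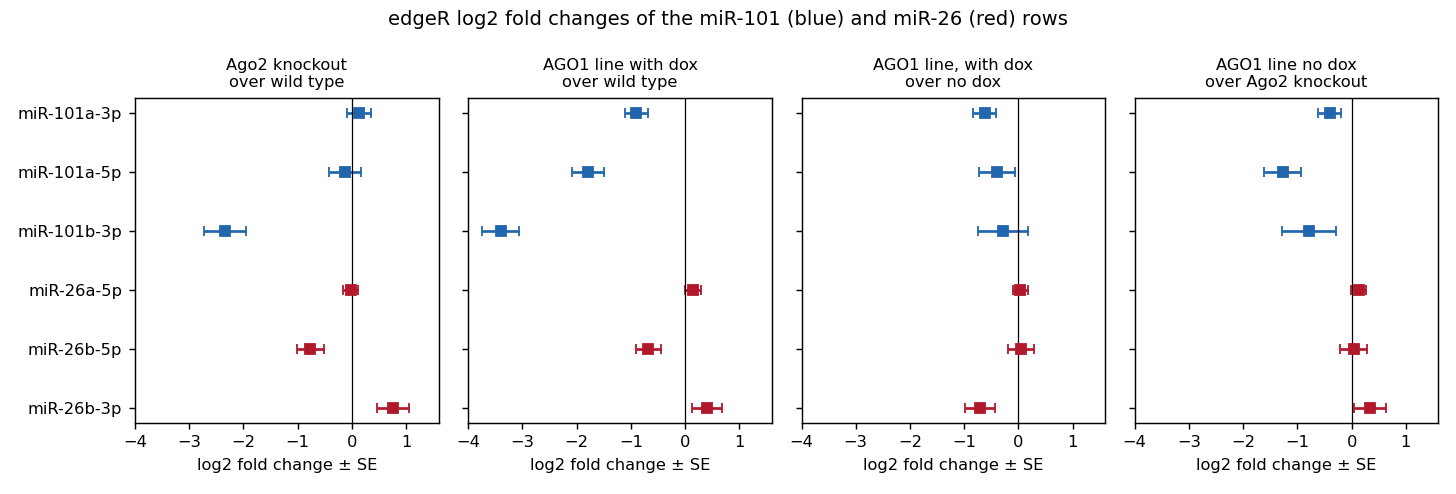
edgeR log2 fold change with its SE for each member in 4 comparisons, the first-named group over the second; values left of the line are lower in the first-named group. miR-101b-3p lies at -2.33 and -3.40 against wild type, and miR-26a-5p within 0.14 of 0 in all 4 panels.

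Shares within a library do not depend on library scaling. Of the counts of miR-101a-3p and miR-101b-3p together, miR-101b-3p held 2.69 and 3.32% in the induced line, 1.74 and 3.66% in the uninduced line, 2.50 and 4.03% in the knockout, and 14.9 and 15.2% in wild type. The highest upper bound of the exact 95% interval in an Ago2-deficient library was 8.56%, in knockout line 2, and the lower bounds in wild type were 12.5 and 12.9%. The Ago2-deficient groups overlapped with each other. miR-26b-5p held 0.919 and 0.830% of the counts of miR-26a-5p and miR-26b-5p in the induced line, 0.940 and 0.779% in the uninduced line, 0.837 and 1.03% in the knockout, and 1.59 and 1.48% in wild type. For this share the interval of knockout line 2 reached 1.39%, above the lower bound of 1.33% in wild type B. The shares of miR-101b-3p and miR-26b-5p were thus smaller in all 6 Ago2-deficient libraries than in both wild type libraries. The AGO1 line was made from knockout line 1, so these libraries are not independent. By CPM, 42.9% of all miRNAs were lower in the knockout than in wild type without overlap. The other miR-26b arm, miR-26b-3p, was higher.

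The arms of a hairpin are cut from 1 precursor, and the arm not kept by an Argonaute protein is usually degraded. miR-26b-3p held 32.1 and 34.9% of the miR-26b counts in the induced line, 44.6 and 47.7% in the uninduced line, 45.0 and 34.8% in the knockout, and 19.5 and 18.9% in wild type. The uninduced line lay above the induced line and wild type below all other groups, while the knockout lines spanned the gap between the 2 AGO1 groups. miR-101a-5p held 6.55 and 9.33% of the miR-101a counts in the induced line, 6.43 and 7.06% in the uninduced line, 11.6 and 11.7% in the knockout, and 12.5 and 15.2% in wild type. Here the AGO1 line was low with and without doxycycline, and the knockout lay just under wild type.

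**Figure D3:**
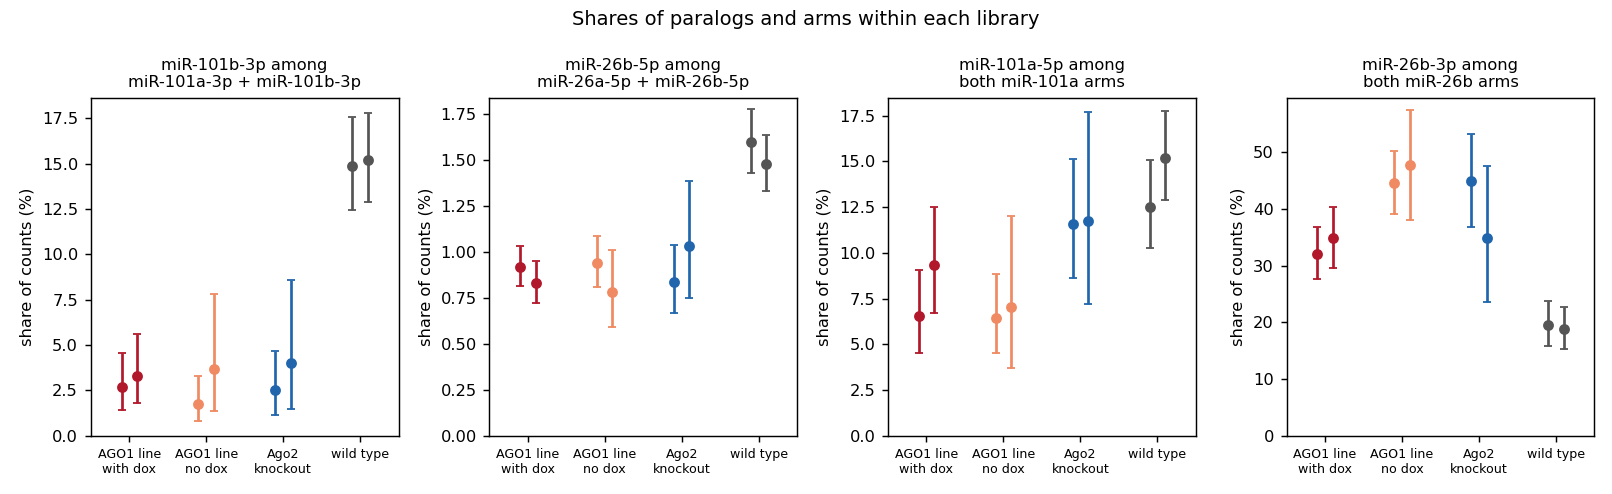
Share of counts (%) on linear axes from 0, in 8 libraries with exact 95% binomial intervals, for 2 paralog pairs and 2 arm pairs. The wild type points stand apart for miR-101b-3p (14.9 and 15.2%), miR-26b-5p (1.59 and 1.48%) and miR-26b-3p (19.5 and 18.9%). For miR-26b-3p the interval of knockout line 2 meets that of wild type A, and for miR-26b-5p it meets that of wild type B. The AGO1 line is at most 9.33% for miR-101a-5p, where its intervals meet those of the knockout.

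Other listed miRNAs of the families, 3 opposite arms and miR-101c, were scarce. miR-26a-2-3p, the only one of these 4 to pass the filter, had 17.1 and 11.0 CPM in the induced line, 34.6 and 19.8 in the uninduced line, 42.4 and 40.2 in the knockout, and 24.9 and 31.5 in wild type. edgeR called it in 0 of the 4 comparisons, as did DESeq2; its unadjusted p was under 0.05 in 2, the induced against the uninduced line (log2 fold change -1.03 ± 0.44) and the induced line against wild type (-0.99 ± 0.41). miR-26a-1-3p had 5 counts in all, miR-101b-5p 6 and miR-101c 1.

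The 3 miRNAs most like each of 4 members over the 8 libraries were found by the root mean square difference of log2 CPM, each centred on its own mean. For miR-26a-5p they were miR-16-5p (0.07), miR-361-5p (0.11) and miR-295-3p (0.14), where the median over all other miRNAs was 0.71. For miR-26b-5p they were miR-182-5p (0.09), miR-30c-5p (0.14) and miR-30d-5p (0.16, with a median of 0.76). For miR-101a-3p they were miR-5121 (0.20), miR-200b-3p (0.22) and miR-19b-3p (0.23, with a median of 0.82). For miR-101b-3p they were miR-18b-5p (0.34), miR-181c-5p (0.36) and miR-30a-5p (0.43, with a median of 1.39). Between members, miR-101a-3p and miR-101b-3p differed by 1.08 and miR-26a-5p and miR-26b-5p by 0.36.

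Of 17 other miRNAs reported, mostly in human cells, to target EZH2, 16 are in the table and 12 passed the filter. The list was chosen with earlier results of these data known, so its calls and medians are a description. Most of the 12 are of the let-7 family, whose reads may be split between its members, so they are not 12 separate cases. miR-214-3p and miR-217-5p had 0 counts in all 8 libraries, miR-137-3p had 1 count and let-7b-5p 10. In the knockout 6 of the 12 were called lower than in wild type and 0 higher by edgeR, where 32.2% of all miRNAs were called lower and 25.5% higher: let-7a-5p, let-7e-5p, let-7f-5p, let-7g-5p and let-7i-5p, of the differentiation-promoting let-7 family, and miR-138-5p. The list's median log2 fold change was -1.19 against -0.12 for all miRNAs. let-7e-5p had only 3 counts in each knockout line. miR-138-5p, a neural miRNA, had 62.4 and 55.3 CPM in the knockout and 191 and 157 CPM in wild type, or -1.55 ± 0.30 in log2 fold change (edgeR adjusted p = 0.00186). The call of let-7i-5p was lost without wild type A, induced A or induced B (edgeR adjusted p = 0.245, 0.0637 and 0.0746).

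Of the same 12, let-7a-5p, let-7e-5p, let-7f-5p and let-7g-5p were called higher in the induced than in the uninduced line and 0 were called lower, where 21.1% of all miRNAs were called higher and 7.79% lower (list median 0.62, all miRNAs 0.03). let-7c-5p, let-7d-5p, let-7i-5p and miR-98-5p were not called (log2 fold changes 0.43, 0.19, 0.39 and 1.77). Nor were miR-138-5p (0.81) and miR-30d-5p (0.24). Without overlap between the groups, 8 of the 12 were higher in the induced line, where 38.3% of all miRNAs were. Another 2, miR-124-3p (-0.65) and miR-25-3p (-0.26), were lower without overlap and not called, where 34.1% of all miRNAs were lower without overlap. let-7e-5p had 112 and 132 CPM in the induced line and 17.3 and 16.5 CPM in the uninduced line, or 2.82 ± 0.35 in log2 fold change (edgeR adjusted p = 0.000272). The call of let-7a-5p was lost without uninduced A or B (edgeR adjusted p = 0.0564 and 0.0516), at log2 fold changes of 1.53 and 1.39 against 1.49 with all libraries. That of let-7g-5p was lost without uninduced A or B or induced A (edgeR adjusted p = 0.127, 0.0566 and 0.0971), at 1.22, 1.40 and 1.20 against 1.35. Without either uninduced library 2 of the 12 remained called. Between the uninduced line and the knockout edgeR called 0 of 12 and DESeq2 0, with 3 at an unadjusted p under 0.05. Leaving out knockout 1 and leaving out knockout 2 gave calls in opposite directions, higher and lower in that order.

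Against wild type the induced line had let-7c-5p called higher and 6 called lower, where 19.2% of all miRNAs were called higher and 19.8% lower. The 6 were let-7d-5p, let-7f-5p, let-7g-5p, let-7i-5p, miR-98-5p and miR-124-3p (list median -0.86, all miRNAs 0.01). let-7c-5p had 264 and 229 CPM in the induced line and 93.7 and 106 CPM in wild type, or 1.30 ± 0.30 in log2 fold change (edgeR adjusted p = 0.00769). let-7e-5p, at 0.07 ± 0.27, overlapped with wild type (edgeR adjusted p = 0.847). Without wild type A, or without induced B, 1 of the 7 calls was left, and without induced A 3 were. let-7 sequences are nearly identical to each other, and reads may be split between them.

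**Figure D4:**
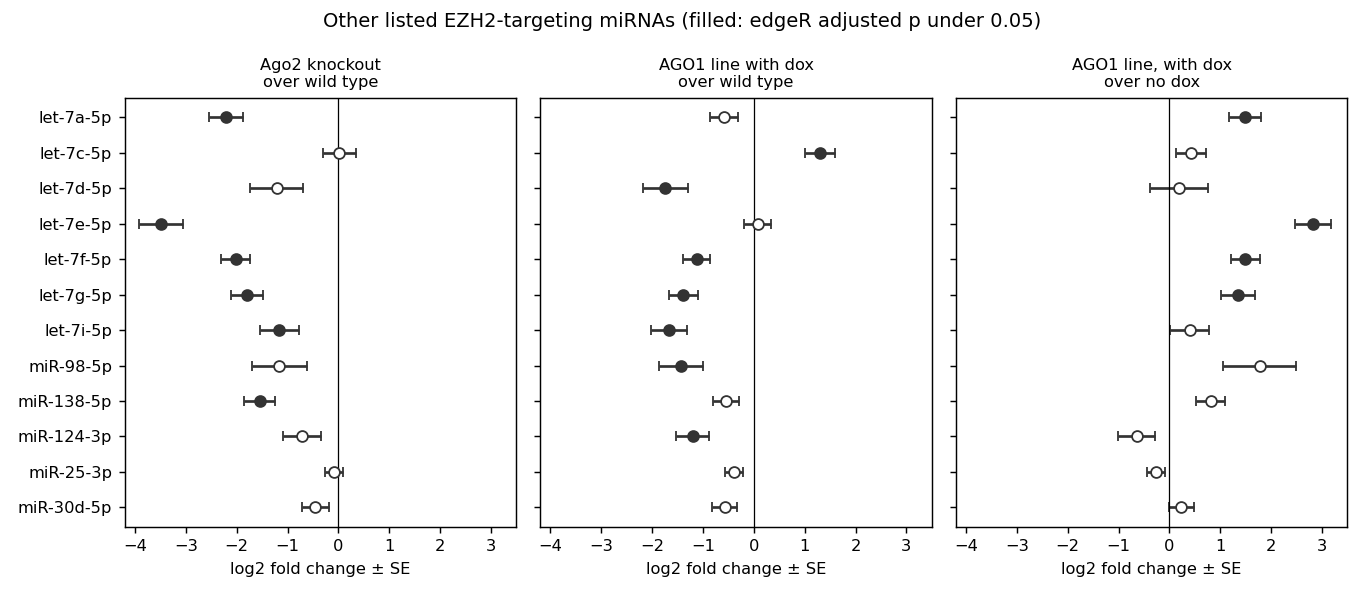
edgeR log2 fold change with its SE for 12 other miRNAs reported to target EZH2, in 3 comparisons, the first-named group over the second; filled points have an adjusted p under 0.05. For the knockout over wild type 6 filled points lie left of the line. For the induced line over wild type 6 lie left and 1 right. For the induced over the uninduced line 4 lie right.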

How the data were processed

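Small RNA libraries were made from total RNA with an Illumina TruSeq kit, per the labels' protocols. The authors deposited raw counts, 1 row a mature miRNA and 1 column a library; 0 columns were left unused. Per the submitters' processing notes, Bowtie and mm10 were used. No source used here gives versions, trimming, mismatches or the treatment of reads with several matches. Of 2 header lines the first was used.

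Of 1915 miRNAs, 475 passed edgeR's filterByExpr and held 99.9% of counts. They were tested with edgeR 4.0.16 (quasi-likelihood F test, TMM factors, R 4.3.3) in 1 fit of 8 libraries and 4 groups, leaving 4 residual degrees of freedom, with Benjamini-Hochberg adjustment within each of 4 comparisons. The SE was derived as the absolute log2 fold change over the square root of F and is approximate. Binomial intervals are exact (Clopper-Pearson, scipy 1.17.1). CPM is the count over the library total times its TMM factor (0.881 to 1.22). A count of 0 was read as up to 3 counts, 2.57 to 15.1 CPM by library. The fitting was tested on simulated data.

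Members and lists were chosen with earlier results of these data known. Named miRNAs are the members, list members called in a comparison, and the 3 most alike per member by log2 CPM (prior count 2). Further list miRNAs and markers were named after their values were seen. Alternatives were DESeq2 1.42.0 (size factors or Wald test), library totals without TMM factors, all miRNAs with counts, a floor of 20 on mean CPM, a fit of just the 2 groups, leaving out each library, and a block for A and B; a fit without the 2 shallowest libraries was added after the data were seen. Where libraries were left out, the abundance filter was applied anew, so the number of miRNAs tested also differed.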

Additional observations from a re-analysis of the deposited data

How the results depend on the processing

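The limits of these values are 2 libraries a group, a knockout group of 2 separate lines, and 6 to 13 counts of miR-101b-3p in each Ago2-deficient library. Over the alternatives run, miR-101b-3p ranged from -2.47 to -2.04 (log2) for the knockout against wild type and from -3.52 to -3.11 for the induced line against wild type, and was called in all 15 and all 16 of them. miR-26a-5p ranged from -0.13 to 0.28 for the knockout against wild type, kept its sign in 3 of 15 and was called in 0. miR-26b-3p (0.45 to 1.17) and miR-26b-5p (-0.87 to -0.46) kept their signs there and were each called in 7 of 15. No called member changed sign. As the members were chosen on these values, their ranges and calls are a description and support nothing.

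Counts of calls over all miRNAs moved by over 1.5 times for the uninduced line against the knockout, from 0 to 2 without TMM factors, 15 with DESeq2, 14 without the abundance filter and 25 without the 2 shallowest libraries; with 1 library left out they ranged from 0 to 61. With 1 library left out they ranged from 57 to 200 for the induced against the uninduced line (137 with all; 57, 75, 78 and 69 without uninduced A, uninduced B, induced A and induced B), from 75 to 258 for the induced line against wild type (185 with all; 75, 105, 102 and 105 without induced B, induced A, wild type A and wild type B) and from 195 to 274 for the knockout against wild type. Among the other miRNAs reported to target EZH2, calls then ranged from 0 to 1, from 2 to 5, and from 1 to 8 in the first 3 of these comparisons. The causes were not tested.

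The letters A and B are shared by 3 groups. Same-letter deviations correlated at 0.235 between the AGO1 groups. With wild type they correlated at 0.081 for the uninduced and -0.0104 for the induced line. With 2 libraries a group, these values rest on the A to B difference of each group. They cannot decide whether the letters pair the samples, and the main fit did not use the letters. With the letters as a replicate block, in a fit without the knockout libraries, 192 of 483 miRNAs were called for the induced against the uninduced line. Among them were miR-101a-3p (-0.63) and miR-26b-3p (-0.71). Without a block, a fit of these 2 groups alone called 203 of 435 miRNAs, these members included. For the induced line against wild type the block fit called 250 of 483 miRNAs, and 11 of the 12 other miRNAs reported to target EZH2. No paired analysis was possible for the knockout because its libraries carry line numbers.

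As shares of all counts the miR-26 members held 2.27% in the induced line, 2.56% in the uninduced line, 2.66% in the knockout and 2.19% in wild type, and over TMM-scaled totals 2.55, 2.50, 2.29 and 2.33%. The miR-101 members held 0.0388, 0.0676, 0.108 and 0.0913% in the same order, and over TMM-scaled totals 0.0436, 0.0659, 0.0929 and 0.0974%.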
